A study of Homo sapiens with 6 samples.

Results

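RNA of 9 genes of the human class I antigen presentation pathway was examined in SKOV3 cells after silencing of KLF5. The genes were taken by name from the deposited table of 29185 genes, and are the heavy chain genes HLA-B, HLA-C, HLA-E and HLA-F, the light chain gene B2M, the peptide transporter genes TAP1 and TAP2, the loading factor gene TAPBP and the transactivator gene NLRC5. All 9 were among the 15803 genes with enough reads to be tested. SKOV3 is a long-used line of human ovarian carcinoma cells. The sh-KLF5 group held 3 libraries of SKOV3 cells that stably carried a short hairpin RNA against KLF5 in a pLKO.1 lentiviral vector with EGFP and puromycin resistance. The sh-NC group held 3 libraries of control SKOV3 cells, whose genotype the labels give as WT. RNA was enriched for polyadenylated transcripts, and no drug treatment is named in the labels of either group. Only 1 knockdown line was sequenced, without a rescue, so an effect of KLF5 and an effect of this hairpin or line cannot be told apart. Nothing in the labels says that the libraries of a group came from separate cultures, so the p-values below measure the spread between these libraries, which may be technical.

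Class I molecules display short peptides from the inside of a cell to CD8+ T cells, and some of them are also read by natural killer cells. Proteasomes cut the peptides in the cytosol, the TAP1 and TAP2 pair carries them into the endoplasmic reticulum, and tapasin, the product of TAPBP, holds an empty class I molecule next to this transporter until a peptide fits. A heavy chain reaches the cell surface only together with the light chain beta-2-microglobulin. NLRC5 is a transactivator that acts at class I promoters together with the RFX, NFY and CREB factors, and interferons raise most genes of the pathway. Loss of class I display is a known route by which carcinomas escape T cells. KLF5 is a zinc finger factor that binds GC-rich and CACCC sequences.

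The recovered depth was 15852319 to 17543896 reads per library. KLF5 itself stood at 4371, 4425 and 4494 normalised reads in sh-NC 1 to 3 and at 1745, 1440 and 1436 in sh-KLF5 1 to 3. It fell by 1.53 on the log2 scale (SE 0.12, limma adjusted p = 2.47e-07), to 34.8% of the control. The carcinoma label was checked against 10 epithelial and ovarian markers. PAX8 was read in all libraries (249 to 400 normalised reads), whereas 5 of the 10 markers were lower in sh-KLF5 and none was higher. Over all tested genes, 6.85% were lower and 6.04% were higher at an adjusted p under 0.05. KRT8 fell by 1.17, KRT7 by 0.78, KRT18 by 0.64, MSLN by 0.71 and MUC16 by 1.54 on the log2 scale. PAX8 (log2 fold change -0.25), ERBB2 (-0.33), EPCAM (-0.03), CDH1 (-0.15) and KRT19 (1.14, at most 17 reads) did not pass. Of 9 leukocyte markers examined, 8 had too few reads to be tested, and PTPRC, LYZ and CD68 had at most 2 reads in any library. The monocyte marker CD14 stood at 187 normalised reads in sh-NC and 305 in sh-KLF5, with overlapping groups (limma adjusted p = 0.0725). Among the markers with too few reads, ITGAX (means 10.3 in sh-NC and 4.0 in sh-KLF5) was lower in all sh-KLF5 libraries. For CSF1R (5.24 and 2.33, lower) and ITGAM (0.328 and 2.32, higher), the groups were apart only through the scaling. In whole reads, CSF1R was tied at 3 in sh-NC 3 and sh-KLF5 1, and ITGAM at 1 in sh-NC 2 and sh-KLF5 1. Summed, the epithelial markers ranged from 54162 to 66196 normalised reads in sh-NC and from 28647 to 39101 in sh-KLF5. The leukocyte markers summed to 173 to 240.2 in sh-NC and to 207 to 395 in sh-KLF5. KRT7 (mean 32104 in sh-NC) and KRT8 (21816) made up most of the epithelial sum, and CD14 most of the leukocyte sum. The part of these markers in the results below was not tested. In these bulk RNA samples, fewer expressing cells and less RNA per cell cannot be told apart. Libraries of the same group differed beyond counting error, and this spread was wider in sh-KLF5 (chi-square over degrees of freedom 11.6 to 34.3 for its pairs) than in sh-NC (4.66 to 9.33).

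The promoters of the members that the comparison turns on are shown first, as the 250 bases before the gene start on the strand of the gene, from RefSeq on GRCh38.p14. B2M and HLA-B were higher in sh-KLF5, while the call was not reached for HLA-C, the closest relative of HLA-B here, or for TAP1. Capitals mark matches, on either strand, of the interferon-stimulated response element core (GAAA, any 2 bases, GAAA), of the CCAAT box, of the GC box GGGCGGG and of the CACCC box CCACCC. They lie at chr15:44711267-44711516 on the plus strand for B2M, and at chr6:31357180-31357429, chr6:31272093-31272342 and chr6:32853705-32853954, all on the minus strand, for HLA-B, HLA-C and TAP1.
B2M: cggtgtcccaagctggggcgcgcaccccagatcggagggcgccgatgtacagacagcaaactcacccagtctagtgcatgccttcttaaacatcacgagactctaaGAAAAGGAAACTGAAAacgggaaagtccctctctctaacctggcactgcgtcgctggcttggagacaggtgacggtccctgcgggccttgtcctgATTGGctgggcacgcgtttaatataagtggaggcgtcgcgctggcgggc
HLA-B: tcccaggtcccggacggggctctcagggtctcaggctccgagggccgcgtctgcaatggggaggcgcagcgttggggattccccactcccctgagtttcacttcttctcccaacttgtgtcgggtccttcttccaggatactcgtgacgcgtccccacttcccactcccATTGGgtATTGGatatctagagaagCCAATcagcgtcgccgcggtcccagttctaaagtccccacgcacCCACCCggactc
HLA-C: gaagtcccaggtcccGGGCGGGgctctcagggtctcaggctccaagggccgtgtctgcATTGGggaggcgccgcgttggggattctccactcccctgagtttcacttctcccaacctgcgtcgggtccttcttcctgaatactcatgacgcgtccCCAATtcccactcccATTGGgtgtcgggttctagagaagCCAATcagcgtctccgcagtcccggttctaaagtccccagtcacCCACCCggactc
TAP1: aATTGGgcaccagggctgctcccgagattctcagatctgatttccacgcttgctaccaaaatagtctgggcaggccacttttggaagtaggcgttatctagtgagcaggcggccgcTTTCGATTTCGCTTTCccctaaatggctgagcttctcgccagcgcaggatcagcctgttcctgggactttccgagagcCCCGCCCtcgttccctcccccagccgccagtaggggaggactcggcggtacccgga

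The HLA-B and HLA-C windows were identical at 226 of 254 aligned positions (89.0%), whereas B2M matched HLA-B at 49.5%. RefSeq promoters were found for 7 of the 9 members, and HLA-E and NLRC5 had no entry. These 7 had 8 promoters, since TAP1 had 2, and a member was counted if any of its promoters held a match. The interferon-stimulated response element core lay in 5 of the 7 (HLA-F, B2M, TAP1, TAP2 and TAPBP), against 3.02% of all 35116 promoters in the table. In B2M it occurred as 2 overlapping matches from 144 to 129 bases before the start, and in TAP1 as 2 overlapping matches from 134 to 119 bases before the start. The CCAAT box was found in HLA-B, HLA-C, HLA-F, B2M and TAP1, against 32.0% of all promoters. HLA-B and HLA-C both held a CCAAT box at bases 56 to 52 before the start and a CACCC box at bases 12 to 7. The CACCC box was in these 2 members only, against 31.3% of all promoters. The GC box was in HLA-C, TAP1, TAP2 and TAPBP, against 31.5%. The cyclic AMP response element TGACGTCA was in none of the 7, against 1.65%. These are exact matches of letters in a window, not binding sites, and near matches of a motif were not counted. The set that passed the test and the set that did not both held members with each of the CCAAT and response element motifs. The CACCC box was likewise in HLA-B, which passed, and in HLA-C, which did not. The GC box was found only in members that did not pass, and a link of any motif to the changes was not tested.

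The design asks which genes change when KLF5 is silenced. B2M and HLA-B were higher in sh-KLF5, by 1.58-fold and 1.33-fold. No member was lower at the threshold, and none reached the log2 fold change of 1 that the study used as its limit. Thus 2 of 9 members rose, none fell and 7 did not pass, against 6.04% of all tested genes called higher and 6.85% called lower at an adjusted p under 0.05. With the fold limit, 1.9% of all genes were higher and 3.37% were lower. The 3 knockdown libraries all exceeded the 3 control libraries in 4 of 9 members, and in none did they all lie below, where 15.4% and 15.9% of all tested genes did so. The log2 fold change was above 0 in 5 of 9 members with a median of 0.03, and in 7852 of 15803 tested genes with a median of 0.00. With 3 libraries against 3, an exact two-sided permutation test of a single gene cannot give a p below 0.1.

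**Figure D1:**
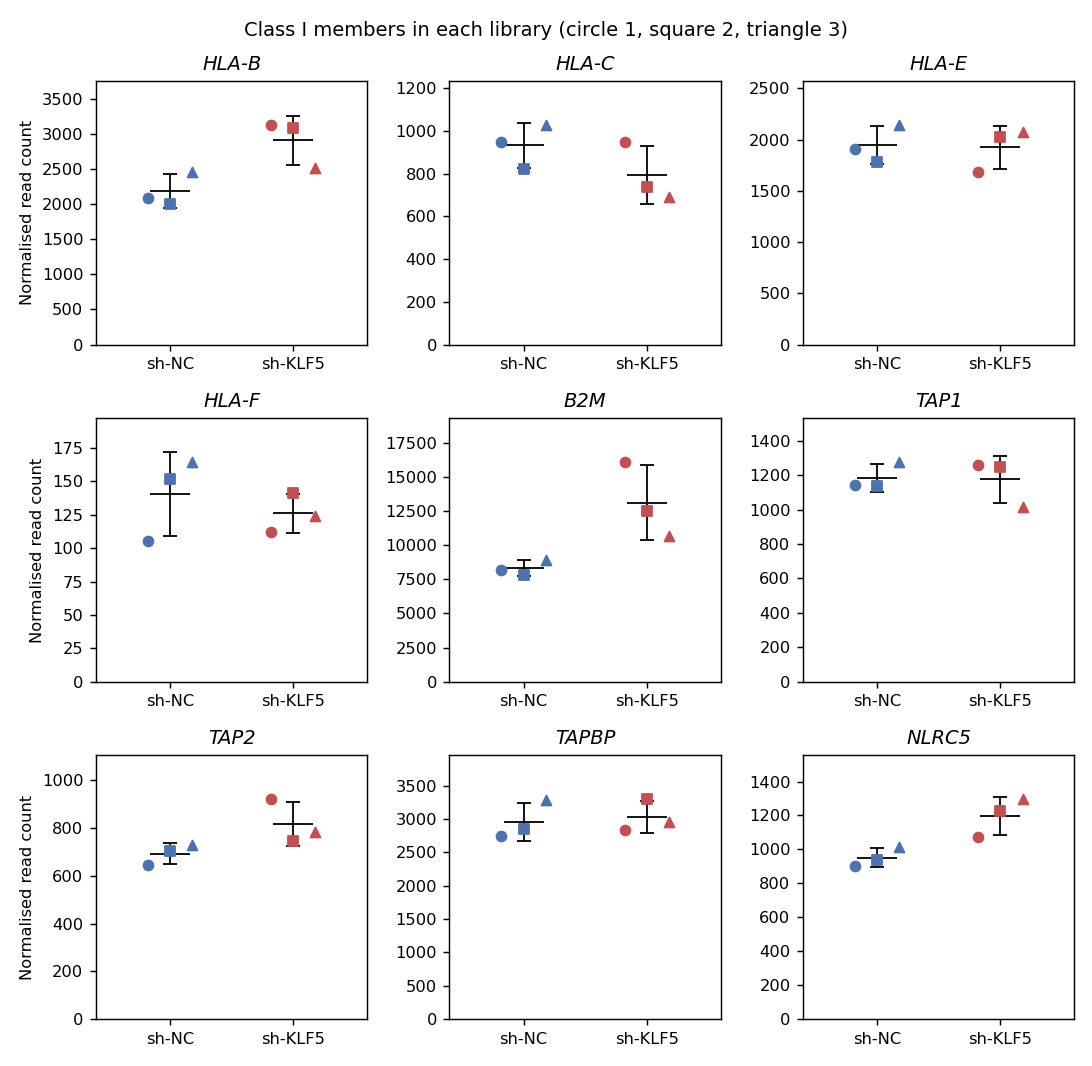
Normalised read count (vertical axes, starting at 0) of each of the 9 members in sh-NC libraries (blue) and sh-KLF5 libraries (red), where the symbol shape gives the replicate number, the long bar the mean and the whiskers the SD (n = 3). B2M, HLA-B, TAP2 and NLRC5 have all sh-KLF5 points above all sh-NC points, and sh-NC 3 is the highest control library in every panel.

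B2M (ENSG00000166710, chr15:44711487-44718877, plus strand) encodes beta-2-microglobulin, the light chain shared by all class I molecules. Its normalised read counts were 8189, 7792 and 8931 in sh-NC 1 to 3 and 16081, 12529 and 10691 in sh-KLF5 1 to 3. The groups did not overlap, and sh-KLF5 1 was the highest of the 6 libraries. The means were 8304 ± 578 (SD, n = 3) and 13100.4 ± 2740 (SD, n = 3). The log2 fold change was 0.64 (SE 0.14, 95% interval 0.34 to 0.94, limma adjusted p = 0.00542). The coefficient of variation was 6.96% among control libraries and 20.9% among knockdown libraries. Without sh-KLF5 1 the log2 fold change was 0.48 with an adjusted p of 0.00226, and B2M stayed past the threshold in all 6 fits that left out a library, with a largest adjusted p of 0.0479 without sh-NC 2. B2M lies outside the major histocompatibility complex, and no other annotated gene overlaps its exons.

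HLA-B (ENSG00000234745) encodes a classical heavy chain, which presents peptides to CD8+ T cells and is read by some receptors of natural killer cells. Its normalised read counts were 2087, 2002 and 2454 in sh-NC 1 to 3 and 3125, 3088 and 2507 in sh-KLF5 1 to 3. The groups did not overlap, but the lowest sh-KLF5 library (sh-KLF5 3) and the highest sh-NC library (sh-NC 3) were close. The means were 2181 ± 240.2 (SD, n = 3) and 2907 ± 346.9 (SD, n = 3), and the log2 fold change was 0.41 (SE 0.13, 95% interval 0.15 to 0.68, limma adjusted p = 0.0404). This call rested on single libraries. The log2 fold change was 0.38 without sh-NC 1 (adjusted p = 0.171), 0.35 without sh-NC 2 (adjusted p = 0.22) and 0.37 without sh-KLF5 2 (adjusted p = 0.134). The annotated HLA-B model (chr6:31269491-31357188, minus strand) is long because it reaches into HLA-C, with which it shares 35 exonic bases, and 17.8% of its exonic bases lie opposite the pseudogene AL671883.2.

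HLA-C (ENSG00000204525, chr6:31268749-31272130, minus strand) encodes the classical heavy chain that is the main ligand of the killer cell immunoglobulin-like receptors. Its normalised read counts were 946, 821 and 1027 in sh-NC 1 to 3 and 949, 737 and 692 in sh-KLF5 1 to 3. The groups overlapped, since sh-KLF5 1 lay within the control range while sh-KLF5 2 and sh-KLF5 3 lay below it. The log2 fold change was -0.24 (SE 0.14, 95% interval -0.54 to 0.06, limma adjusted p = 0.301). Without sh-KLF5 1 it was -0.38 and passed the threshold (adjusted p = 0.0228).

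HLA-E (ENSG00000204592, chr6:30489467-30494205, plus strand) is a nonclassical heavy chain gene whose product shows leader peptides of other class I chains to the CD94/NKG2 receptors of natural killer cells. Its normalised read counts were 1911, 1785 and 2142 in sh-NC 1 to 3 and 1684, 2021 and 2072 in sh-KLF5 1 to 3. The groups overlapped, with a log2 fold change of -0.02 (SE 0.12, 95% interval -0.28 to 0.24, limma adjusted p = 0.953). HLA-F (ENSG00000204642, chr6:29722775-29738528, plus strand), a nonclassical heavy chain gene with little surface display in most cells, was the lowest of the 9. It had 105, 152 and 164 normalised reads in sh-NC 1 to 3 and 112, 142 and 124 in sh-KLF5 1 to 3. The groups overlapped, and the interval of the log2 fold change was the widest of the 9, at -0.57 to 0.29 around -0.14 (limma adjusted p = 0.719). Of the HLA-F exonic bases, 12.3% lie opposite HLA-F-AS1 and 16.1% opposite the pseudogene AL645939.1, and the strand setting of the counting is not given in the sources used here.

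TAP1 (ENSG00000168394, chr6:32845209-32853978, minus strand) and TAP2 (ENSG00000204267, chr6:32821833-32838780, minus strand) encode the subunits of the peptide transporter. TAP1 stood at 1142, 1134 and 1275 normalised reads in sh-NC 1 to 3 and at 1260, 1250 and 1016 in sh-KLF5 1 to 3. The groups overlapped, and the log2 fold change was -0.02 (SE 0.12, 95% interval -0.28 to 0.24, limma adjusted p = 0.957). TAP2 stood at 644, 705 and 729 in sh-NC 1 to 3 and at 921, 745 and 783 in sh-KLF5 1 to 3. All sh-KLF5 libraries lay above the control libraries, yet the log2 fold change of 0.23 (SE 0.12, 95% interval -0.03 to 0.50) did not pass the test (limma adjusted p = 0.256). A read-through gene model on the same strand, AL669918.1, covers 32.3% of the TAP2 exonic bases, so reads there may be assigned to neither gene.

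TAPBP (ENSG00000231925, chr6:33299694-33314387, minus strand) encodes tapasin, which bridges class I molecules to the transporter. Its normalised read counts were 2749, 2846 and 3284 in sh-NC 1 to 3 and 2829, 3295 and 2958 in sh-KLF5 1 to 3. The groups overlapped almost fully, with a log2 fold change of 0.03 (SE 0.12, 95% interval -0.21 to 0.28, limma adjusted p = 0.893).

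NLRC5 (ENSG00000140853, chr16:56989485-57083531, plus strand) encodes the class I transactivator. It stood at 901, 938 and 1014 normalised reads in sh-NC 1 to 3 and at 1075, 1225 and 1295 in sh-KLF5 1 to 3. Every sh-KLF5 library lay above every sh-NC library, and the means were 951 ± 57.7 and 1199 ± 112 (SD, n = 3 each). The log2 fold change of 0.33 (SE 0.12, 95% interval 0.08 to 0.58) had an unadjusted p of 0.0131 and did not pass after adjustment (limma adjusted p = 0.081). Without sh-KLF5 1 it was 0.41 and passed (adjusted p = 0.00645).

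**Figure D2:**
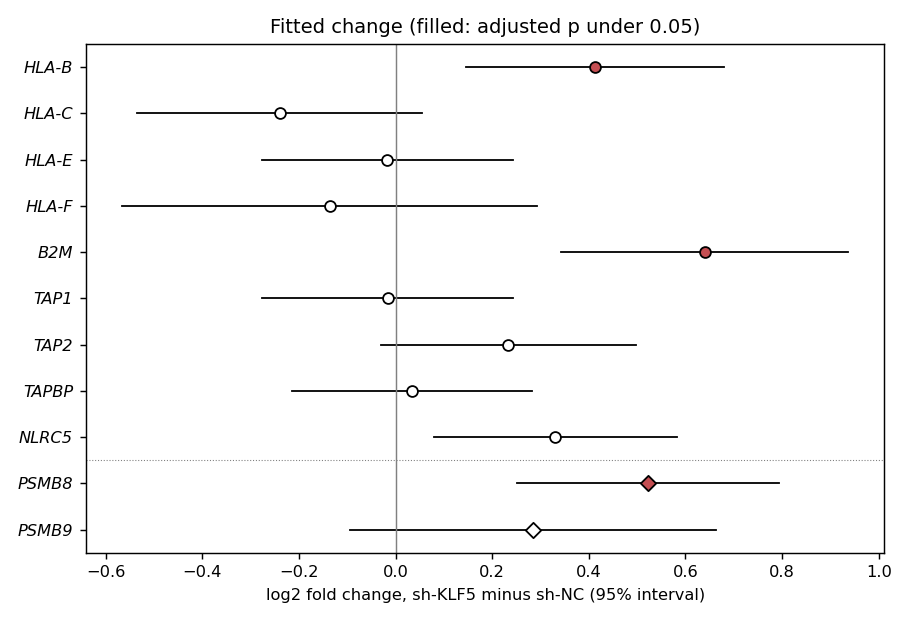
Log2 fold change (sh-KLF5 minus sh-NC, horizontal axis) with its 95% interval for the 9 members (circles) and for PSMB8 and PSMB9 (diamonds), where filled symbols have an adjusted p under 0.05. The intervals of B2M (0.34 to 0.94), HLA-B (0.15 to 0.68), NLRC5 (0.08 to 0.58) and PSMB8 lie above 0, and those of the other members include 0.

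Within the control group, sh-NC 3 was the highest sh-NC library for 9 of 9 members, where it was so for 39.2% of all tested genes. sh-KLF5 1 was the highest sh-KLF5 library for 5 of 9 members, against 40.3% of all tested genes. B2M, HLA-B, HLA-C, TAP1 and TAP2 were highest there, while NLRC5 and HLA-E were highest in sh-KLF5 3.

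Summed over the 9 members, the normalised read count was 18676, 18175 and 21022 in sh-NC 1 to 3 and 28037, 25033 and 22139 in sh-KLF5 1 to 3, and the mean in sh-KLF5 was 130% of that in sh-NC. Without B2M the sums were 10488, 10383 and 12091 against 11956, 12504 and 11447, so the groups overlapped, and the mean was 109% of control. The 4 heavy chain genes together ranged from 4760 to 5788 in sh-NC and from 5395 to 5989 in sh-KLF5, with overlapping groups.

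Levels were compared between genes as normalised reads per kilobase of the deposited gene length, which joins all annotated exons and is longer than most single transcripts. In sh-NC, B2M was the highest at 1366 ± 95.1 (SD, n = 3) reads per kilobase. HLA-B (715 ± 78.7), HLA-E (654 ± 60.8) and TAPBP (585 ± 56.4) followed, and each neighbour in this trio overlapped the next in its library ranges. HLA-C stood at 371 ± 41.5, TAP1 at 246 ± 16.5, TAP2 at 108 ± 6.82, NLRC5 at 76.8 ± 4.66 and HLA-F at 32.4 ± 7.18, and from TAPBP down no neighbours overlapped. The order of the 9 was the same in sh-KLF5, where B2M stood at 2155 ± 451 reads per kilobase, HLA-B at 953 ± 114, HLA-E at 647 ± 71.0 and TAPBP at 599 ± 47.6. HLA-B no longer overlapped HLA-E there, and HLA-E and TAPBP still overlapped. The lower members stood at 316 ± 54.7 for HLA-C, 245 ± 28.7 for TAP1, 128 ± 14.5 for TAP2, 96.8 ± 9.08 for NLRC5 and 29.03 ± 3.42 for HLA-F.

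Ratios within a library do not depend on its scaling. They were chosen after the values were seen, and 5 were computed. HLA-B over HLA-C was 2.21, 2.44 and 2.39 in sh-NC 1 to 3 and 3.29, 4.19 and 3.62 in sh-KLF5 1 to 3, a 1.57-fold higher ratio with no overlap (exact permutation p = 0.1, the smallest possible, Benjamini-Hochberg adjusted p = 0.167 over 5 ratios). B2M over HLA-C was 8.66, 9.49 and 8.70 in sh-NC 1 to 3 and 16.9, 17.0 and 15.5 in sh-KLF5 1 to 3, or 1.84-fold higher. B2M and HLA-C were both highest in sh-KLF5 1 among the knockdown libraries, and their ratio spread less there than B2M alone. B2M over HLA-B averaged 3.82 ± 0.156 and 4.49 ± 0.578 (SD, n = 3 each), also without overlap. TAP2 over TAP1 averaged 0.586 ± 0.0311 in the control libraries and 0.700 ± 0.0916 in the knockdown libraries, with overlapping groups (exact permutation p = 0.2), and PSMB9 over TAP1 was 0.139 ± 0.0174 and 0.173 ± 0.0324 (exact permutation p = 0.3).

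**Figure D3:**
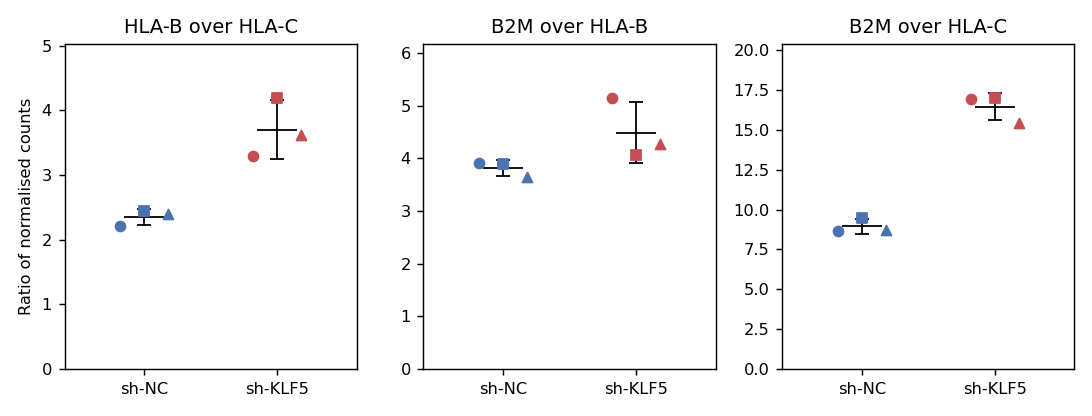
Ratio of normalised counts within each library (vertical axes, starting at 0) for HLA-B over HLA-C, B2M over HLA-B and B2M over HLA-C, drawn as in the plot of members by library (bar and whiskers, mean and SD, n = 3). The sh-KLF5 libraries lie above the sh-NC libraries in all 3 panels, with the widest gap for B2M over HLA-C (15.5 to 17.0 against 8.66 to 9.49).

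Beyond the 9, 9 lists of genes of antigen presentation and its receptors were examined, of which 93 genes could be tested. Of these, 10 were higher (10.8%) and 7 were lower (7.53%), against 6.04% and 6.85% of all tested genes, and the median log2 fold change was 0.05. The list genes that passed thus lay on both sides.

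Among 7 tested class I-like and pseudogene heavy chain genes, 1 rose and 1 fell. MR1, which presents vitamin B metabolites to mucosal-associated invariant T cells, stood at 217, 234 and 259 normalised reads in sh-NC 1 to 3 and at 424, 368 and 361 in sh-KLF5 1 to 3 (log2 fold change 0.70, SE 0.14, limma adjusted p = 0.00328). The pseudogene HLA-V fell by 0.93 on the log2 scale (adjusted p = 0.0313), from 60.1 ± 10.1 to 30.9 ± 5.38 reads (SD, n = 3 each). Of 8 NKG2D ligands, stress-induced relatives of class I that activate natural killer cells, 2 rose and none fell. ULBP2 was higher by 0.62 (adjusted p = 0.00463) and MICB by 0.46 (adjusted p = 0.0195) on the log2 scale, while MICA was at 0.03 (adjusted p = 0.897).

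Of 13 peptide loading and trimming genes, none rose and 2 fell, both of them glycoprotein folding factors. CANX (calnexin), which holds new heavy chains, fell by 0.47 (adjusted p = 0.00857), with 24438 to 25420 normalised reads in sh-NC and 16593 to 18561 in sh-KLF5. UGGT1, which returns misfolded glycoproteins to the folding cycle, fell by 0.45 (adjusted p = 0.0187). The loading complex partners CALR (log2 fold change 0.01) and PDIA3 (0.02) and the peptide trimming enzyme ERAP1 (0.24, adjusted p = 0.204) did not pass.

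Of 8 immunoproteasome and activator genes, 1 rose and 1 fell. PSMB8, the interferon-inducible catalytic subunit LMP7, stood at 428, 392 and 447 normalised reads in sh-NC 1 to 3 and at 669, 584 and 571 in sh-KLF5 1 to 3. Every sh-KLF5 library was higher, with a log2 fold change of 0.52 (SE 0.13, limma adjusted p = 0.0114). By the RefSeq starts, PSMB9, the subunit LMP2, begins 488 bases from TAP1 and is read in the opposite direction. Its counted gene model (chr6:32844136-32859585) is longer and spans TAP1. PSMB9 stood at 136, 168 and 191 in sh-NC 1 to 3 and at 173, 224 and 205 in sh-KLF5 1 to 3. The groups overlapped, with a log2 fold change of 0.29 (limma adjusted p = 0.34). Of the PSMB8 exonic bases, 20.6% lie opposite PSMB8-AS1 and 4.64% opposite PSMB9. Of those of PSMB9, 5.66% overlap PSMB8-AS1 on the same strand. The proteasome activator gene PSME4 fell by 0.38 (adjusted p = 0.0386). None of the 14 constitutive proteasome subunits passed in either direction.

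Among 14 genes of factors that act at class I promoters, IRF2 was higher (log2 fold change 0.60, SE 0.14, adjusted p = 0.00762), and EZH2, a histone methyltransferase that represses chromatin, fell by 0.40 (adjusted p = 0.0362). IRF2 binds the interferon-stimulated response element. The NLRC5 partner RFX5 had a log2 fold change of 0.00 and IRF1 of 0.21 (adjusted p = 0.368). Among 14 interferon receptor and JAK-STAT genes, 2 rose and 1 fell. IFNGR1, the ligand-binding chain of the interferon gamma receptor, stood at 477, 500 and 489 normalised reads in sh-NC 1 to 3 and at 1260, 967 and 1040 in sh-KLF5 1 to 3 (log2 fold change 1.15, SE 0.13, limma adjusted p = 1.2e-05). SOCS1, a feedback inhibitor of JAK kinases, was higher by 1.23 (adjusted p = 0.00318), and STAT3 fell by 0.54 (adjusted p = 0.00226). IFNGR2, the other chain of that receptor, had a log2 fold change of 0.07 (adjusted p = 0.751).

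Of the ligands of T cell and natural killer cell receptors, 10 could be tested, and 3 rose and 1 fell. PDCD1LG2 (PD-L2) was higher by 1.33 (adjusted p = 0.00493), CD274 (PD-L1) by 1.02 (adjusted p = 0.0345) and CD47 by 0.50 (adjusted p = 0.0284) on the log2 scale. CD274 was low in all libraries, at 22.3 to 36.3 normalised reads in sh-NC and 43.7 to 78.5 in sh-KLF5. ICOSLG fell by 1.28 (adjusted p = 0.0225). Class II genes mostly had few reads, and of 13 examined only 5 could be tested, with none past the threshold. HLA-DRB1 stood at 21.3 ± 10.6 normalised reads in sh-NC and 45.1 ± 10.3 in sh-KLF5 (log2 fold change 1.16, adjusted p = 0.0601), and the class II transactivator CIITA had a log2 fold change of 0.41 (adjusted p = 0.118).

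Of the genes of these lists named above as higher or lower, MR1, ULBP2, IFNGR1, SOCS1, STAT3 and PDCD1LG2 kept their call in all 6 fits that left out a library. PSMB8 lost it without sh-NC 2 and IRF2 lost it without sh-NC 2. CANX lost it without sh-NC 1 and without sh-NC 2. MICB and CD47 lost it without any of the 3 sh-NC libraries. UGGT1, PSME4 and EZH2 lost it without any of the sh-NC libraries and without sh-KLF5 2. HLA-V lost it without sh-NC 2, sh-NC 3 or sh-KLF5 2, ICOSLG without sh-NC 2, sh-NC 3 or sh-KLF5 3, and CD274 without sh-NC 2, sh-NC 3, sh-KLF5 1 or sh-KLF5 3.

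**Figure D4:**
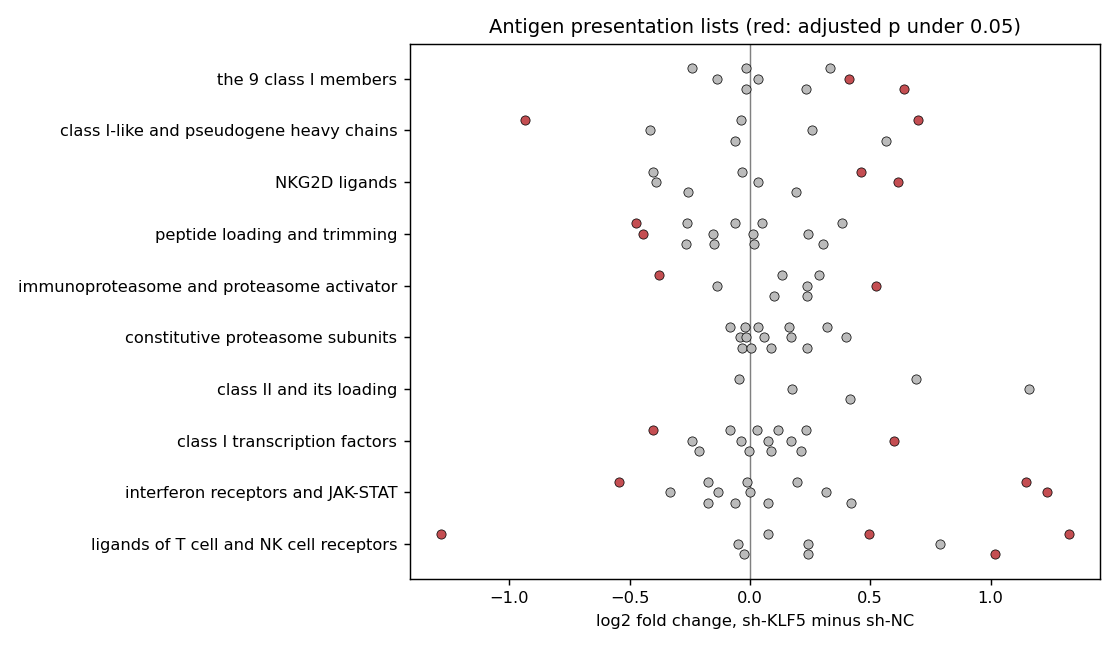
Log2 fold change (sh-KLF5 minus sh-NC, horizontal axis) of every tested gene of the 9 members and of 9 related lists (rows), where each point is a gene, its height within a row has no meaning, and red points have an adjusted p under 0.05. Red points lie on both sides of 0, at 10 higher and 7 lower over the 9 lists, and none lies in the rows of constitutive proteasome subunits and class II.

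Of the 9 members, 7 lie on chromosome 6 between HLA-F and TAPBP, a stretch of 3.592 Mb that holds most of the major histocompatibility complex. Of the 116 tested genes there, 7 were higher (6.03%) and 1 was lower (0.862%), against 6.04% and 6.85% of all tested genes, and the median log2 fold change was -0.06. HLA-B, MICB, PSMB8, FLOT1, IER3, HCP5 and NEU1 were the genes that rose. The last 4 of these were named after their values were seen, and IER3, a stress response gene, was the highest of the genes that passed there, at 0.94 on the log2 scale. The groups did not overlap in 13 genes of the stretch with sh-KLF5 above (11.2%) and in 14 with sh-KLF5 below (12.1%), against 15.4% and 15.9% of all tested genes.

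**Figure D5:**
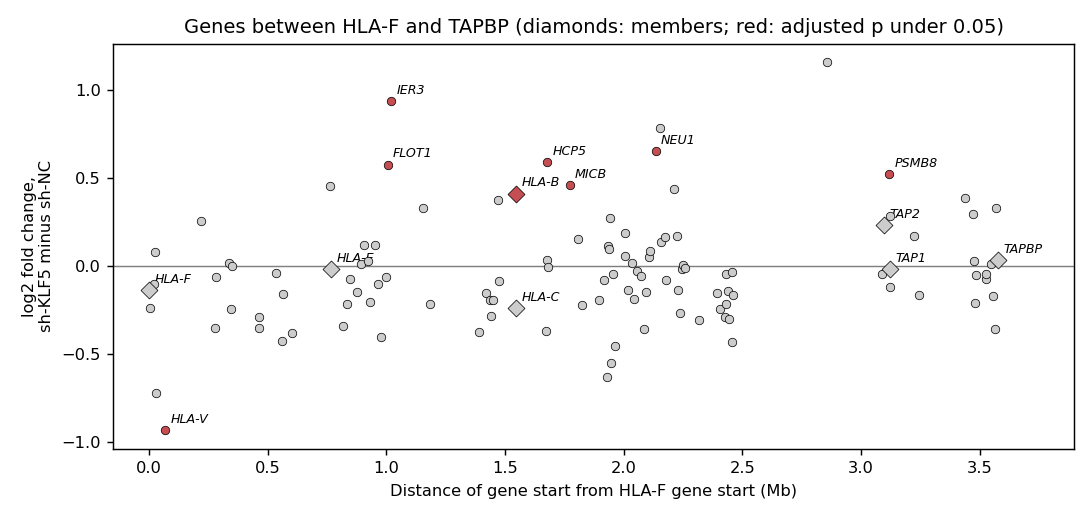
Log2 fold change (vertical axis, sh-KLF5 minus sh-NC) of the 116 tested genes between HLA-F and TAPBP against the distance of the gene start from that of HLA-F in Mb (horizontal axis), where diamonds are members and red symbols have an adjusted p under 0.05. Of the 7 members drawn, only HLA-B is red. The red genes above 0 start from 1005 kb (FLOT1) to 3118 kb (PSMB8), and HLA-V, below 0, starts at 68.2 kb. FLOT1 and IER3 are next to each other. HLA-B, HCP5 and MICB start close together at 1547, 1678 and 1772 kb, and MICA, which starts among them, is not red.

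Among genes that are not members and had a mean of at least 100 normalised reads, those whose log2 values over the 6 libraries were most like the mean of HLA-B, HLA-C, HLA-E and HLA-F were WIPI2 (Pearson r 0.987), APOBEC3C (0.978) and CSTB (0.967), out of 10659 genes. With 6 libraries from 2 groups, and many genes searched, this is a description only. The heavy chain genes themselves were less like their mean, at r 0.646 for HLA-F, 0.485 for HLA-B, 0.432 for HLA-E and 0.357 for HLA-C. Between pairs of them r ran from -0.204 (HLA-C and HLA-E) to 0.437 (HLA-E and HLA-F). Likeness to the mean is thus not likeness to each heavy chain gene. WIPI2 stood at 802, 862 and 1027 normalised reads in sh-NC 1 to 3 and at 891, 946 and 841 in sh-KLF5 1 to 3.

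Reads of class I heavy chain genes are hard to assign, because the genes resemble each other and vary between people. Among annotated transcripts, stretches of 100 bases shared with another gene made up 12.9% of HLA-B, all with the pseudogene AL671883.2, 0.126% of HLA-C, 0.491% of HLA-E (with HLA-G) and 15.3% of HLA-F. They made up 30.3% of TAP2 (with AL669918.1) and 7.26% of TAP1 (with PSMB8-AS1), and none of B2M, TAPBP or NLRC5. The genes that share with HLA-B, HLA-F, TAP1 and TAP2 overlap them in the genome, and how much of the HLA-B change comes from such stretches was not tested. The SKOV3 alleles can differ from the reference, which could lower the count of an allele in both groups, and this was not tested.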

How the data were processed

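RNA-seq of polyadenylated RNA was measured in 3 sh-NC and 3 sh-KLF5 libraries, grouped by the labels. Per the labels' processing notes, the submitters used HISAT2 2.0.5, featureCounts 1.5.0-p3 and DESeq2 1.20.0 with hg38. The authors deposited 1 table with a normalised signal per gene and library, which is the read count divided by 1 factor per library, and with gene lengths. Its columns of fold changes and p-values were not used. The whole reads were recovered from the smallest steps, and 100% of the values came out whole within 0.001 reads. Strand and read length are not given in the sources used here.

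The groups were compared with limma 3.58.1 (R 4.3.3, trend and robust) on log2(normalised count + 1). The pseudocount of 1 understates changes of low genes. Genes passed edgeR's filterByExpr (minimum count 10) on the recovered reads, and p-values were adjusted by Benjamini-Hochberg over all 15803 tested genes. A gene passed, and is called higher or lower, at an adjusted p under 0.05. Intervals and depth cover counting error and library spread only. edgeR 4.0.16 on the recovered reads called 997 genes higher and 1093 lower, and limma called 955 and 1083. Self-tests on simulated counts were run first. The alternatives were DESeq2 1.42.0, other scaling, pseudocounts and filters, unadjusted p, the replicate block and leaving out each library.

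The rule that picks the members uses gene names and no measured value, but the members and lists were chosen with earlier results of these data known. The named genes are the 9 members, KLF5, and at most 4 genes per list and direction with the smallest adjusted p among those that passed. PSMB8, PSMB9, the 3 genes most like the mean of the heavy chains and genes that overlap members were also named. Other list genes named without a call, such as RFX5 and IFNGR2, were picked after their values were seen. Same-numbered libraries of the groups did not deviate together (correlations 0.059, 0.033 and 0.050), so the numbers were not taken as pairs. Exons are from GENCODE release 29, and promoters from RefSeq (GRCh38.p14). Plots were made with Python 3.11.15 and matplotlib 3.10.9. A few genes of the lists are not reported here.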

Additional observations from a re-analysis of the deposited data

How the results depend on the processing

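B2M passed the threshold under every alternative run, with log2 fold changes from 0.48 to 0.78 when a library was left out. HLA-B passed in all fits on the full set of libraries and lost its call in 3 of the 6 fits that left out a library (log2 fold change 0.35 to 0.52). HLA-C (-0.38 to -0.15) and NLRC5 (0.27 to 0.41) passed without sh-KLF5 1, and NLRC5 also at an unadjusted p under 0.05 (0.33). The small changes turned direction, without passing, for HLA-E (-0.077 to 0.077, at 0.054 without sh-NC 3 and 0.077 without sh-KLF5 1), TAP1 (-0.069 to 0.086, at 0.039 without sh-NC 3 and 0.086 without sh-KLF5 3) and TAPBP (-0.029 to 0.11, at -0.017 without sh-NC 1 and -0.029 without sh-KLF5 2). HLA-F and TAP2 did not pass under any alternative. With a library left out, 1 to 3 members were higher and 0 to 1 lower, 5 to 12 pathway list genes were higher and 1 to 8 lower, and 3 to 8 genes of the chromosome 6 stretch were higher and 0 to 2 lower. At an unadjusted p under 0.05, 19 list genes were higher, and 11 genes of the stretch were higher and 8 lower, which follows from the looser threshold. Without the filter on low counts 2 genes of the stretch were lower. The replicate block also gave 2 lower, changed no member's call and gave an adjusted p of 0.0169 for HLA-B. It called 1292 genes higher and 1383 lower over all genes. By the labels, same-numbered libraries share only a number, so this fit was not used. Whether they were prepared together is not known. Over all genes, 2024 were higher and 2110 lower at an unadjusted p, and keeping only genes with at least 10 reads in every library, which removes genes that fell, left 758 lower. Over all genes the same left-out libraries gave 514 to 1266 higher and 676 to 1439 lower, so the share of all genes that a count is read against moves too, by over 1.5 times without sh-NC 1 (599 higher) and without sh-NC 2 (514 higher, 676 lower). In alternatives chosen after seeing the data, the log2 change of HLA-B over HLA-C was 0.56 to 0.73 and that of B2M over HLA-C 0.86 to 0.92 with a library left out. Low counts limit HLA-F, the pseudogenes, CD274, ICOSLG and class II, and 3 libraries per group limit all intervals. The causes of these shifts were otherwise not tested.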
